A study of Mus musculus with 24 samples.

Results

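The genes described here encode the large, ATP-driven chaperones of the mouse and the J-domain proteins that work with them: the Hsp70, Hsp110 and Hsp90 families, mitochondrial Hsp60 with its Hsp10 lid, the subunits of the cytosolic chaperonin TRiC, and the DnaJ classes A, B and C. The set was proposed with earlier results of these data known, by a rule on gene symbols (Dnaja, Dnajb and Dnajc genes, Hspa genes without Hspa5, Hsp90 genes, Hsph1, Hspd1, Hspe1, Cct2 to Cct8 and Tcp1) that uses no measured value. The array carried 71 such genes, and 62 of them were kept because the brightest probe passed Agilent's test for signal over background on every array of 1 group or more. These 62 are part of 11429 genes tested, out of 27664 on the array. Of the 62, 54 matched by the name printed on the array and 8 more by their updated symbol (Dnajc21, Dnajc24, Dnajc25, Dnajc27, Dnajc28, Dnajc30, Hspa13 and Hsph1). The kept probes passed on all 12 sham arrays, so no member entered through the injured groups only. The 9 genes left out were Cct8l1, Dnajb3, Dnajb7, Dnajb8, Dnajb13, Dnajc5b, Dnajc5g, Dnajc6 and Dnajc22. Of these, Dnajb3 was above background on 5 arrays and the others on 0.

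RNA from mouse hearts was measured on two-colour arrays, with the heart in the Cy5 channel and pooled RNA of whole C57BL/6 pups on postnatal day 1 in the Cy3 channel of each array. The hearts came from adult mice of 12 to 16 weeks, either wild type (MuRF1+/+) or MuRF1 Tg+, which carry a transgene for the muscle ubiquitin ligase MuRF1. Mice of each genotype had a sham operation or ischemia-reperfusion (I/R) injury, in which a ligature closes the left anterior descending artery (LAD) for a time and is then released. Each heart was cut into a piece above and a piece below the ligature, or its would-be site in sham mice. This gave 8 groups of 3 arrays: each genotype, each operation and each piece. The labels call the 3 arrays of a group biological replicates. The promoter of the transgene, the number of transgenic lines and the times of ischemia and reperfusion are not given in the sources used here. All values below are log2 of heart Cy5 over pup Cy3, so a level is relative to the pup pool. The pool is shared, so its own level drops out of a difference between 2 groups of hearts. The scaling within each array uses both channels and does not drop out. Some directions below depended on that scaling.

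Chaperones hold unfolded proteins and let them fold through cycles of ATP binding. Hsp70 proteins take their clients from J-domain proteins, which also trigger the ATPase of Hsp70. Hsp110 proteins exchange its nucleotide. Hsp90 finishes the folding of kinases and receptors, TRiC folds actin and tubulin inside its chamber, and Hsp60 with Hsp10 does the same for proteins imported into mitochondria. Heat shock factor 1 binds repeats of GAA and TTC in promoters of many of these genes, and the heart is known to raise the inducible Hsp70 after ischemia.

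The promoters of 4 members are shown first because they carry the 2 kinds of response element that these families are known for, and because the genes behind them did not move alike below. Each line gives the 250 bases before the annotated start, 5′ to 3′ on the gene's strand, from RefSeq windows on GRCm38.p6. Capitals mark matches to a heat shock element (alternating GAA and TTC) in the first 3, and to an ER stress response element in the last.
Hspa1a: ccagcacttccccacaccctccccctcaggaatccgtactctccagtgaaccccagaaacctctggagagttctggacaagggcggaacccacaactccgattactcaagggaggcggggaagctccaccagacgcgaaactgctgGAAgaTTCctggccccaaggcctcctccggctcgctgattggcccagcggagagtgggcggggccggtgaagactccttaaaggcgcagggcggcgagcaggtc
Hspe1: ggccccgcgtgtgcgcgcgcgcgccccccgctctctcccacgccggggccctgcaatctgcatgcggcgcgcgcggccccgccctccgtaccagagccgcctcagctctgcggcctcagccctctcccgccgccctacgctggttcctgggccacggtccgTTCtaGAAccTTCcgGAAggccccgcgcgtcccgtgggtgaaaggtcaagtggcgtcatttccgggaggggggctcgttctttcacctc
Cct5: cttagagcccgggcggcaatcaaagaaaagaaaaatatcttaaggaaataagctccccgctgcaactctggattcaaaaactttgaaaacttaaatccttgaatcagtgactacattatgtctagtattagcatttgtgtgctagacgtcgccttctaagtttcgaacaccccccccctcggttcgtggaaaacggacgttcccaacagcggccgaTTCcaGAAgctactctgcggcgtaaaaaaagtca
Hsp90b1: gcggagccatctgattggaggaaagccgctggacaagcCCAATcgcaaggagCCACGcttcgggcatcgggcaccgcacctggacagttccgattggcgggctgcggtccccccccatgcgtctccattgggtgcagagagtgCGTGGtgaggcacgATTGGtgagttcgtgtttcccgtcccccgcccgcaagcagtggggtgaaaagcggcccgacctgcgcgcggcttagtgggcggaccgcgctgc

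The Hspa1a promoter lies at chr17:34972157-34972406 on the minus strand and holds a 2-unit heat shock element whose first base is at -104 from the start. The Hspe1 promoter lies at chr1:55087898-55088147 on the plus strand, with overlapping 3-unit elements whose first bases are at -89 and -84. Hspd1, the neighbour that is read the other way, holds the same stretch at -144 and -139. The Cct5 promoter lies at chr15:31601847-31602096 on the minus strand, with a 2-unit element at -34. The Hsp90b1 promoter lies at chr10:86705445-86705694 on the minus strand, with ER stress response elements at -212 and -107.

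RefSeq promoter windows, which run from 250 bases before to 50 bases after a start, were matched by symbol for 50 of the 62 members, in 67 windows. The 3-unit heat shock element was searched as GAA, TTC, GAA or as TTC, GAA, TTC, each with any 2 bases between neighbouring units, which covers both strands. It was found in 8.96% of the members' windows and in 0.603% of all 32851 windows. The members that held it were Hspe1, Hspd1, Hsph1 and Dnajb6. The 2-unit element, GAANNTTC or TTCNNGAA, lies inside each 3-unit one and was found in 22.4% of the members' windows against 15.1% of all. The ER stress response element, CCAAT and CCACG with any 9 bases between them on either strand, was in 2.99% of the members' windows against 0.119% of all, in Hsp90b1 and Dnajc3. A match describes the letters of a window and does not show that a factor binds there.

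The arrays differed in quality. The share of Cy5 spots well above background was 34.6% to 43.3% on sham arrays and 9.90% to 38.3% on I/R arrays. It was below 25% on 5 I/R arrays, called weak here: wild-type above 1 and 2, wild-type below 1, and Tg+ below 2 and 3. Leaving out the weak arrays keeps 1 I/R array in wild-type above, 2 in wild-type below, 3 in Tg+ above and 1 in Tg+ below, so each value without them in a group of 1 assumes that this array varies like those of other groups. The median SD within a group over all genes was 0.0865 for sham and 0.160 for I/R groups. Tissue markers also moved in the mean of the 4 I/R against sham comparisons, where 27.7% of all genes rose and 27.9% fell. Marker counts near these shares, such as 3 of 9 endothelial markers lower, do not set a cell type apart from all genes. Of 11 ventricular cardiomyocyte markers 6 fell and 0 rose, with a mean level of 3.09 to 3.55 on sham and 2.22 to 3.20 on I/R arrays, so the cardiac label held in all groups. All 5 neutrophil markers tested rose, from between -1.86 and -1.58 to between -0.77 and 0.51. Of these, Retnlg, Mmp8 and Lcn2 were above background on 0, 0 and 1 sham arrays. They entered the test only through I/R groups, so the filter favoured their rise. S100a8 and S100a9 were above background on 6 and 12 sham arrays. Csf3r (0 arrays) and Cxcr2 (2 I/R arrays) were not tested. Of 9 monocyte and macrophage markers 6 rose and 0 fell, from between -0.53 and -0.25 to between -0.22 and 0.38. Fibroblast (7 of 9), atrial (6 of 7), epicardial (3 of 4) and adipocyte (3 of 3) markers also rose, 3 of 9 endothelial markers fell, and of 4 smooth muscle markers 2 rose and 1 fell. The mean of the atrial markers rose most above the ligature, from -0.54 to 1.26 in wild type and from -0.36 to 1.68 in Tg+. Below the ligature it went from -1.07 to -0.80 in wild type and from -1.07 to -0.23 in Tg+. Under median centring, a scaling described below, all 7 fibroblast, all 3 adipocyte and 1 of the 6 atrial calls turned, and with Agilent's log ratio 1 adipocyte call did. In pieces of tissue, fewer cells of a type and less RNA per cell cannot be told apart. The part of cell makeup in the results below was not tested. Trim63, the gene of MuRF1, differed between Tg+ and wild type by 0.03 and -0.07 in sham and by 0.09 and -0.90 in I/R pieces (above, then below, SE 0.39, adjusted p at least 0.164). The sources used here do not say whether its probe reads the transgene, and it therefore does not check the genotype labels.

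After I/R the inducible Hsp70 rose in both genotypes and both pieces, although none of these 4 calls held with the slide as a block, where its mean over them did. By the same mean the mitochondrial chaperones Hspd1 and Hspa9 fell. The cytosolic Hsp90aa1, the TRiC subunit Cct5 and the J-domain protein Dnajb1 rose too, but the direction of these 3 turned when the arrays were centred on their median in place of loess, as given beside each. Averaged over the 4 comparisons, 34 of 62 members passed the test (limma, adjusted p under 0.05), against 55.6% of all genes tested. The direction was uneven: 7 members rose, 11.3% of them against 27.7% of all genes, and 27 fell, 43.5% against 27.9%. All genes tested include some that entered only through I/R groups, such as Retnlg, whereas each member was above background on all 12 sham arrays. These shares are therefore not fully like for like. The median of the members was -0.12 and that of all genes -0.001, with 45 members below 0 and 17 above. This gap was smaller without the weak arrays (-0.05 against -0.006) and with Agilent's log ratio (-0.25 against -0.19). The 12 I/R arrays did not overlap the 12 sham arrays for Hspa1a and Cct5, which were higher (2.46% of all genes), and for Hspd1, Hspa9 and Hspa12a, which were lower (2.74% of all genes). The Hspa12a probe was above background on only 2 of the 12 I/R arrays. It passed the filter only through sham groups, so the filter favoured its fall and its lack of overlap.

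Of the 34 calls, 25 held without the 5 weak arrays, 19 held with the slide as a block, and these 19 were among the 25. None turned its direction in either. With 1 array left out at a time, 29 kept their call in all 24 fits. The other 5 lost it in some: Cct3 in 17, Dnaja2 in 12, Dnajc15 in 18, Dnajc5 in 8 and Dnajc7 in 16. Both pieces of a heart enter this mean, and with the heart as a random block 6 members rose and 25 fell. Median centring moved the median of all genes by -0.40 and split all calls into 96 higher and 8491 lower, against 3168 and 3191 in the loess fit. Among the members it called 1 higher and 57 lower. Agilent's own log ratio moved the median by -0.19 and called 33.3% of the changed genes higher, against 49.8%, with 8 members higher and 26 lower. With the Cy5 channel alone the share called higher was 38.1%, with 8 members higher and 26 lower.

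**Figure D1:**
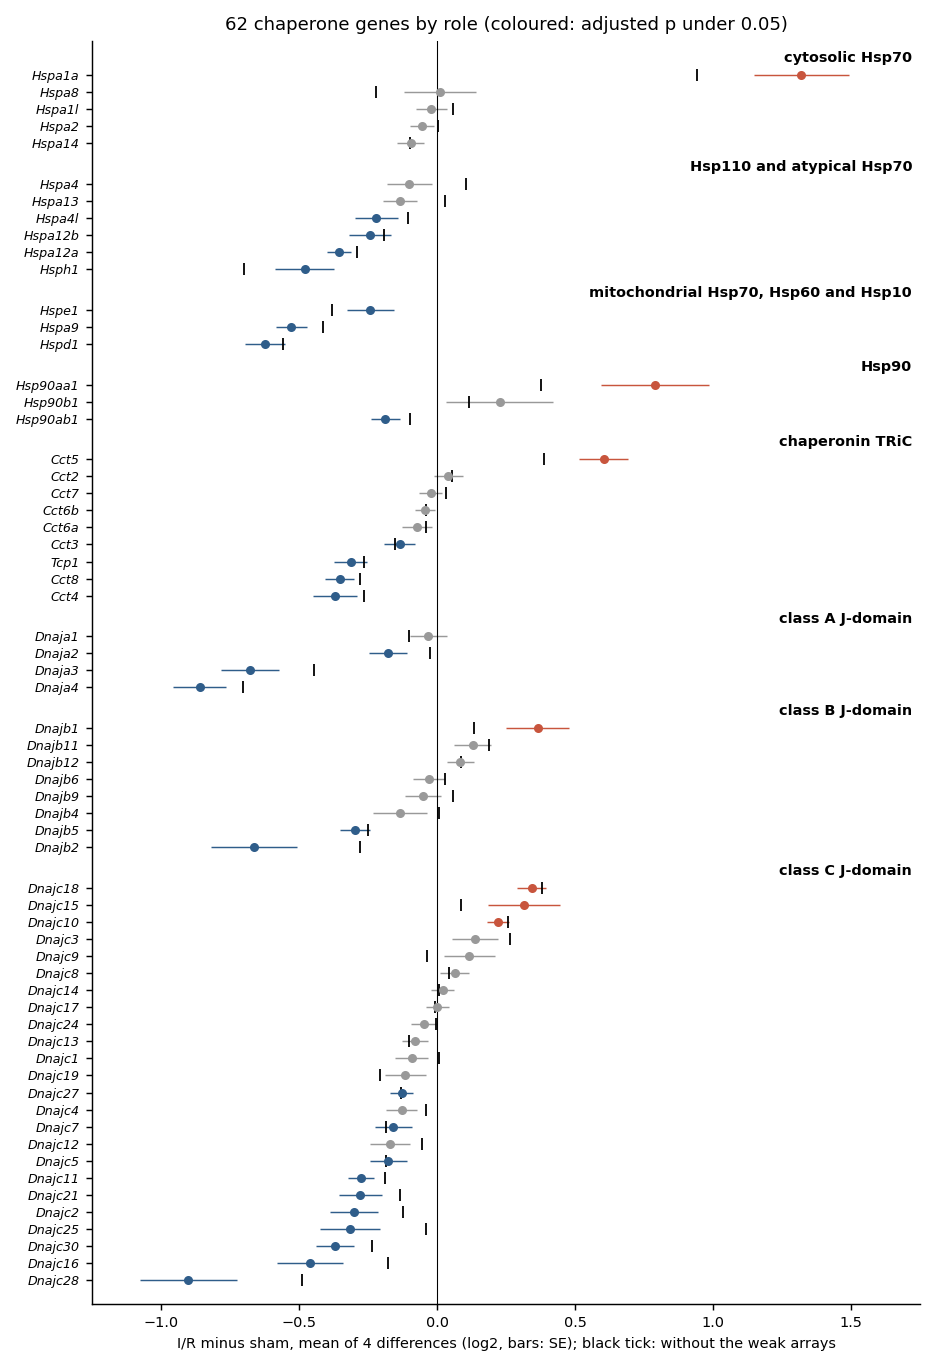
Difference between I/R and sham for each of the 62 members, averaged over genotypes and pieces (log2, x axis; points with SE), by role; coloured points passed the test and black ticks show the value without the 5 weak arrays. Hspa1a stands at the top with 1.32, and the mitochondrial Hsp70, Hsp60 and Hsp10 all lie below 0; of the members that rose, Hsp90aa1, Cct5, Dnajb1, Dnajc10, Dnajc15 and Dnajc18 lay below 0 under median centring.

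In the mean comparison 27.7% of all genes rose and 27.9% fell, and these shares apply to each count by role or compartment below. Most of these groups are small, and none was tested against the shares. Among the 5 cytosolic Hsp70 genes, 1 rose and 0 fell. Hspa1a encodes the inducible Hsp70, which is nearly absent from unstressed tissue; its near-identical neighbour Hspa1b is not named on the array, and its RNA may be read by the same probe. On the 12 sham arrays its level was lowest at -1.53, with a median of -1.45 and a highest value of -1.16. After I/R it was -0.15, 0.63 and -0.77 in wild-type pieces above the ligature and 0.38, -0.49 and 0.39 in those below. In Tg+ hearts it was -0.95, 0.20 and 0.13 above and -0.71, 0.12 and 0.54 below. Every I/R array was above every sham array, and within each I/R group the arrays spread over more than the whole sham range. The mean difference was 1.32 ± 0.17 (SE; 2.49-fold, adjusted p = 6.83e-06).

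The difference in Hspa1a was 1.29 ± 0.34 in wild-type above, 1.49 ± 0.34 in wild-type below, 1.15 ± 0.34 in Tg+ above and 1.35 ± 0.34 in Tg+ below. It passed the test in each (adjusted p = 0.0194, 0.0158, 0.0306 and 0.0075). With 1 array left out the call was lost in wild-type above without sham replicate 2 or 3 or I/R replicate 2 (adjusted p = 0.0665, 0.0591 and 0.120), and in wild-type below without sham replicate 1 or 2 or I/R replicate 1 (0.0580, 0.0606 and 0.0521). It was lost in Tg+ above without sham replicate 1 or 3 or I/R replicate 2 or 3 (adjusted p = 0.0980, 0.103, 0.130 and 0.135), and in Tg+ below without I/R replicate 3 (0.0528). The mean kept its call in all 24 such fits. With the slide as a block all 4 calls were lost, at 0.84, 1.41, 0.98 and 1.08 (adjusted p = 0.4002, 0.249, 0.236 and 0.198), while the mean held at 1.08 (adjusted p = 0.00739). With only the arrays of a comparison both wild-type calls were lost (adjusted p = 0.0533 above and 0.120 below). Without the weak arrays the mean was 0.94 (adjusted p = 0.000106), and the calls in wild-type above (0.62, adjusted p = 0.285) and Tg+ below (0.65, adjusted p = 0.231) were lost, each of these resting on the 1 I/R array left. On the 1 slide per comparison that held both operations, Hspa1a was higher after I/R by 1.06 (wild-type above), 1.64 (wild-type below), 1.69 (Tg+ above) and 1.40 (Tg+ below). Each of these values compares a single I/R array with a single sham array. The I/R array was a weak one in wild-type above and in Tg+ below. Its other 2 kept probes rose by 1.15 and 0.40. Under median centring it stayed above 0 at 0.63.

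Hspa8, the constitutive Hsc70 that is abundant in all cells, was 0.04 to 0.43 on sham arrays (median 0.25) and -0.36 to 1.00 on I/R arrays (median 0.15). The mean difference of 0.01 ± 0.13 did not pass (adjusted p = 0.952), but its second probe gave -0.57 (adjusted p = 0.000618), and without the weak arrays the first probe gave -0.22 (adjusted p = 0.0299). The direction of Hspa8 was thus not settled by these arrays. Hspa1l (-0.02), Hspa2 (-0.06), both known from the testis, and Hspa14 (-0.10), which works at the ribosome, did not pass.

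Of 6 Hsp110 and atypical Hsp70 genes, 4 fell and 0 rose, where 27.9% and 27.7% of all genes did so. Hsph1 encodes Hsp110, the nucleotide exchange factor of Hsp70 and itself a heat shock gene, and its window holds a 3-unit heat shock element. Its level was 0.35 to 0.90 on sham arrays (median 0.70) and -0.52 to 0.63 on I/R arrays (median 0.23). With 7 of 12 I/R arrays below the lowest sham array, the mean difference was -0.48 ± 0.11 (adjusted p = 0.00101), and -0.70 without the weak arrays. Hspa12a, an atypical Hsp70 without a known J-domain partner, was 0.28 to 0.55 on sham and -0.20 to 0.20 on I/R arrays. Its mean difference was -0.35 ± 0.04 (adjusted p = 3.07e-06). Its probe was above background on all 12 sham arrays but on only 2 of 12 I/R arrays. This probe passed the filter only through sham groups, which favoured its fall. The I/R values thus lie mostly near the floor, and the size of the fall is uncertain. In wild-type I/R above it was above background on 0 of 3 arrays, and the fall there was at least 1.33-fold (a bound from the lowest signal well above background, Cy5 channel only and open to dye bias). Hspa12b, known from endothelium, fell by 0.24 ± 0.08 and Hspa4l by 0.22 ± 0.08, the latter not without the weak arrays. Hspa4 did not pass by its brightest probe (-0.10) but gave -0.80 by another (adjusted p = 3.52e-07), and the probes of Hspa13, an ER and microsomal Hsp70, differed in sign (-0.14 and 0.14).

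The 3 mitochondrial members of the Hsp70, Hsp60 and Hsp10 families all fell. Hspd1 encodes Hsp60, the chamber that folds imported matrix proteins. Its level was 0.44 to 0.59 on the 12 sham arrays, a narrow range with a median of 0.50. After I/R it was -0.08, -0.31 and -0.10 in wild-type above and 0.37, 0.19 and 0.09 in wild-type below. In Tg+ it was -0.29, -0.36 and -0.52 above and 0.13, 0.09 and -0.68 below. No I/R array reached the lowest sham array, and both genotypes had their higher I/R values below the ligature, save 1 Tg+ array. The mean difference was -0.62 ± 0.07 (adjusted p = 1.76e-06), -0.56 without the weak arrays and -0.58, -0.51, -0.80 and -0.41 within single slides. Each value within a slide compares a single array of each operation, with a weak I/R array in wild-type above and Tg+ below. A second probe gave -0.96.

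Hspa9 encodes mortalin, the Hsp70 of the import motor and matrix. It was 0.78 to 1.12 on sham arrays (median 0.93) and 0.08 to 0.75 on I/R arrays (median 0.35), without overlap. The mean difference was -0.53 ± 0.06 (adjusted p = 7.11e-07), -0.41 without the weak arrays, and -0.79 by a second probe. Hspe1, the Hsp10 lid of Hsp60, behaved less evenly. Its sham arrays ran from 0.26 to 0.71. Wild-type I/R arrays were at 0.81, 0.56 and 0.09 above and 0.71, 0.33 and 0.55 below, of which 1 lay under that range and 1 over it. Tg+ I/R arrays were at -0.28, -0.02 and 0.06 above and -0.17, 0.24 and -0.38 below, all lower than every sham array. Its difference was -0.02 in wild-type above, 0.03 in wild-type below, -0.48 in Tg+ above (adjusted p = 0.0578) and -0.50 in Tg+ below (adjusted p = 0.0289). With 1 array left out, the last of these passed only without I/R replicate 2. The mean difference was -0.24 ± 0.08 (adjusted p = 0.0201) and -0.38 without the weak arrays, and with the slide as a block it did not pass (-0.18, adjusted p = 0.181). The divergent promoter that Hspe1 shares with Hspd1 came with differences of -0.02 for Hspe1 against -0.67 for Hspd1 in wild-type above; on the 1 I/R array of that group that was not weak they were -0.42 and -0.61.

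**Figure D2:**
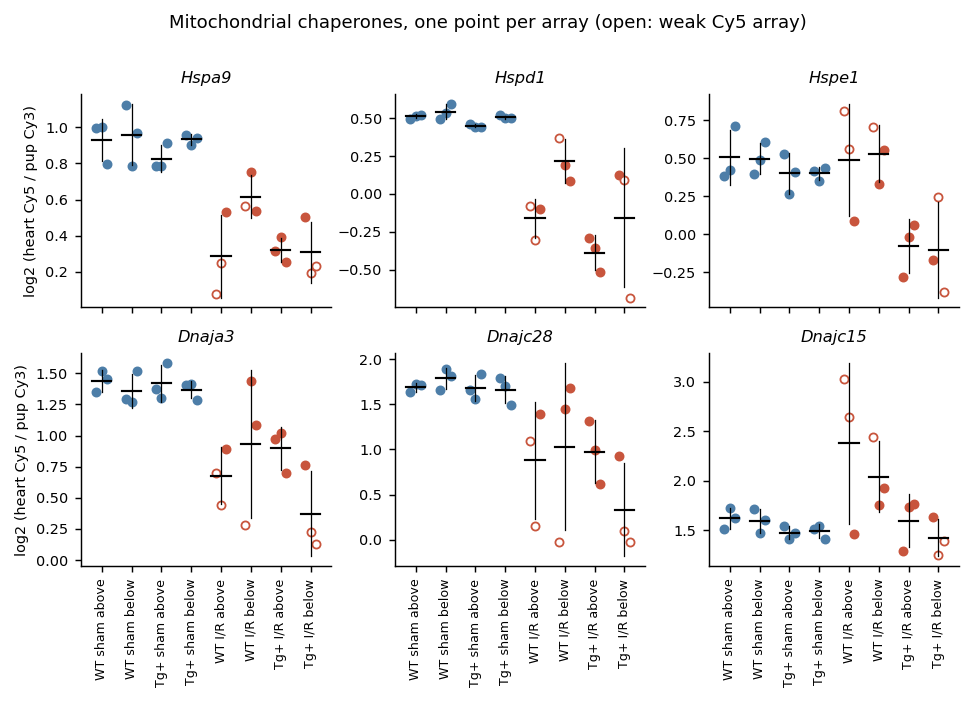
Level of 6 mitochondrial chaperone genes (y axis, log2 heart Cy5 over pup Cy3) on each of 24 arrays in 8 groups; lines show mean and SD, and open points are weak arrays. For Hspa9 and Hspd1 every I/R array lies below every sham array, for Hspe1 all Tg+ and 1 of the wild-type I/R arrays do, and Dnajc15, which rose on average, has its highest values on weak wild-type arrays and turned under median centring.

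With the J-domain proteins counted, 10 members are listed as mitochondrial. Of these 7 fell and 1 rose, where 27.9% and 27.7% of all genes did so, with a median of -0.32. Dnaja3 (Tid1), the matrix partner of mortalin, was 1.27 to 1.59 on sham and 0.13 to 1.44 on I/R arrays. It fell by 0.68 ± 0.11 (adjusted p = 4.18e-05), and its value was -0.44 without the weak arrays. Dnajc28, a little studied J-domain protein, had the largest fall of all members at 0.90 ± 0.18 (adjusted p = 0.000365), with a median of 1.71 on sham arrays (highest 1.89) and 0.96 on I/R arrays (-0.03 to 1.69). Without the weak arrays its difference was -0.49, and its 2 other probes gave -0.69 and -0.28. The brightest Dnajc28 probe was above background on 8 of 12 I/R arrays. Dnajc30 fell by 0.37 ± 0.07 and Dnajc11, of the inner membrane organising complex, by 0.28 ± 0.05. The Dnajc11 probe was above background on 5 of 12 I/R arrays and on 0 of 3 in Tg+ below, where its Cy5 signal was 1.24-fold lower as measured. Dnajc15, a J-domain protein of the import motor, was the exception at 0.32 ± 0.13 (adjusted p = 0.0463). That call was lost without the weak arrays (0.09), and under median centring the value was -0.98. Dnajc19, its relative in the import motor (-0.12), and Dnajc4 (-0.13) did not pass.

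Of the 3 Hsp90 genes, 1 rose and 1 fell. Hsp90aa1 is the stress-inducible cytosolic form. Its sham arrays ran from -1.10 to -0.53 with a median of -0.85. After I/R it was -0.28, 0.80 and -0.42 in wild-type above, 1.40, -0.58 and -0.49 in wild-type below, -0.97, -0.42 and -0.52 in Tg+ above and -0.28, 0.82 and 0.28 in Tg+ below. The highest values, 1.40, 0.82 and 0.80, were all on weak arrays, and 10 of 12 I/R arrays were above the highest sham array. The mean difference was 0.79 ± 0.20 (1.73-fold, adjusted p = 0.00256). It was 0.37 without the weak arrays (adjusted p = 0.00121) and 0.69 with the slide as a block (adjusted p = 0.106). Under median centring it was -0.64, below the shift of all genes. No single comparison passed for Hsp90aa1, with 0.99, 1.08, 0.09 and 0.99 in the order wild-type above and below, Tg+ above and below.

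Hsp90ab1, the constitutive cytosolic form, was -0.31 to -0.01 on sham and -0.76 to -0.11 on I/R arrays. It fell by 0.19 ± 0.05 (adjusted p = 0.00605), a call lost without the weak arrays (-0.10), while its second probe gave -0.52 (adjusted p = 1.31e-05). Hsp90b1 is Grp94, the Hsp90 of the endoplasmic reticulum, whose promoter is printed above. It ranged from -0.09 to 0.82 on sham and from -0.31 to 1.67 on I/R arrays, and the mean difference of 0.23 ± 0.19 did not pass (adjusted p = 0.332). Within slides, with a single array of each operation, the wild-type differences were -1.13 and -0.65 and the Tg+ ones 0.87 and 1.58. The I/R array was weak in wild-type above and Tg+ below. A second probe gave -0.18.

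**Figure D3:**
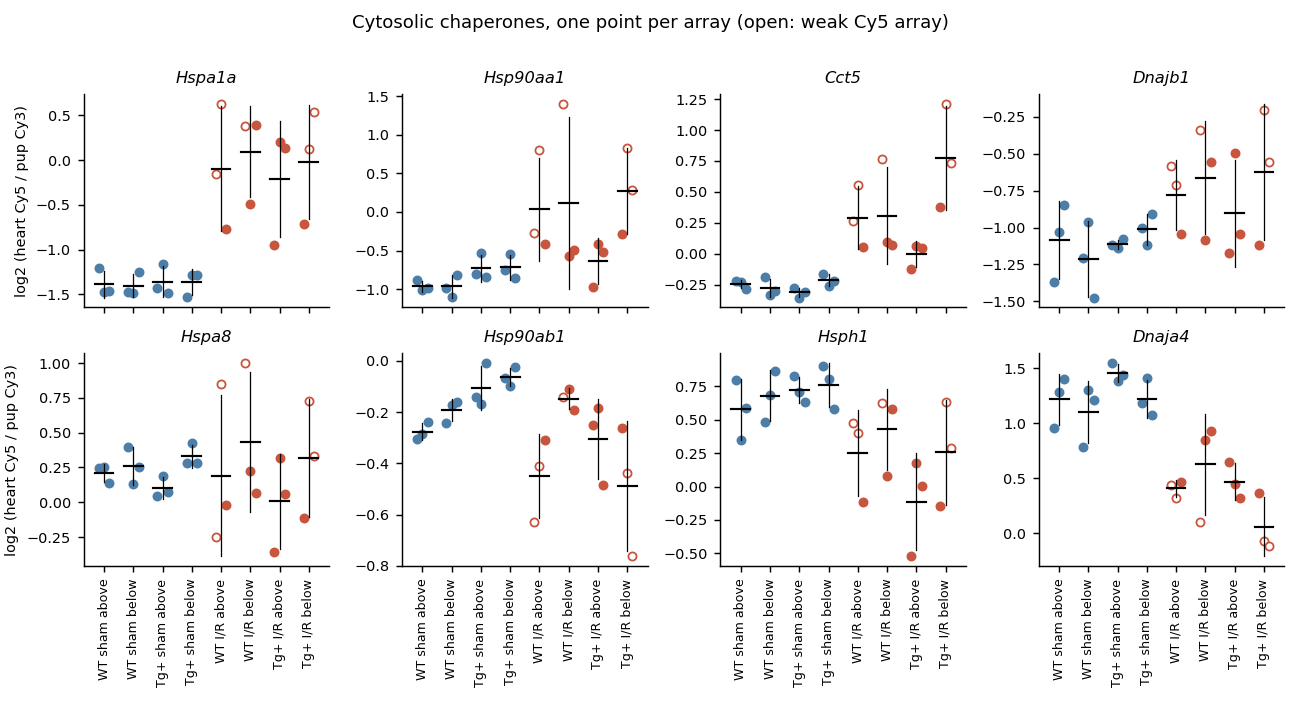
Level of 8 cytosolic chaperone genes (y axis, log2 heart Cy5 over pup Cy3) on each of 24 arrays in 8 groups; lines show mean and SD, and open points are weak arrays. All I/R arrays exceed all sham arrays for Hspa1a and Cct5, the 3 highest Hsp90aa1 values are weak arrays, and Dnaja4 lies lower after I/R; Hsp90aa1, Cct5 and Dnajb1 turned direction under median centring and Hspa1a did not.

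The 9 genes tested for subunits of TRiC did not move together: 4 fell, 1 rose and 4 did not pass, where 27.9% of all genes fell and 27.7% rose. Cct5, the epsilon subunit, was -0.35 to -0.16 on the 12 sham arrays. After I/R it was 0.26, 0.56 and 0.06 in wild-type above, 0.77, 0.09 and 0.07 in wild-type below, -0.12, 0.07 and 0.05 in Tg+ above and 0.38, 1.21 and 0.73 in Tg+ below. All I/R arrays were above all sham arrays. The mean difference was 0.60 ± 0.09 (1.52-fold, adjusted p = 2.31e-05), 0.39 without the weak arrays and 0.20 with the Cy5 channel alone (both past the threshold). Under median centring it was -0.82, and -0.42 relative to the shift of all genes.

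The subunits that fell were Cct4 (-0.37 ± 0.08), Cct8 (-0.35 ± 0.05), Tcp1 (-0.31 ± 0.06) and Cct3 (-0.14 ± 0.06). Cct8, the theta subunit, was -0.09 to 0.18 on sham arrays and below the lowest of these on 11 of 12 I/R arrays. Tcp1, the alpha subunit, was -0.37 to -0.05 on sham and -1.03 to -0.21 on I/R arrays, with wild-type below (-0.21, -0.24 and -0.22) inside the sham range. Without the weak arrays Cct4, Cct8 and Tcp1 were at -0.27, -0.28 and -0.26 and still passed, and Cct3 did not. Cct2 (0.04), Cct6a (-0.07), Cct6b (-0.04; the testis form) and Cct7 (-0.02) did not pass.

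**Figure D4:**
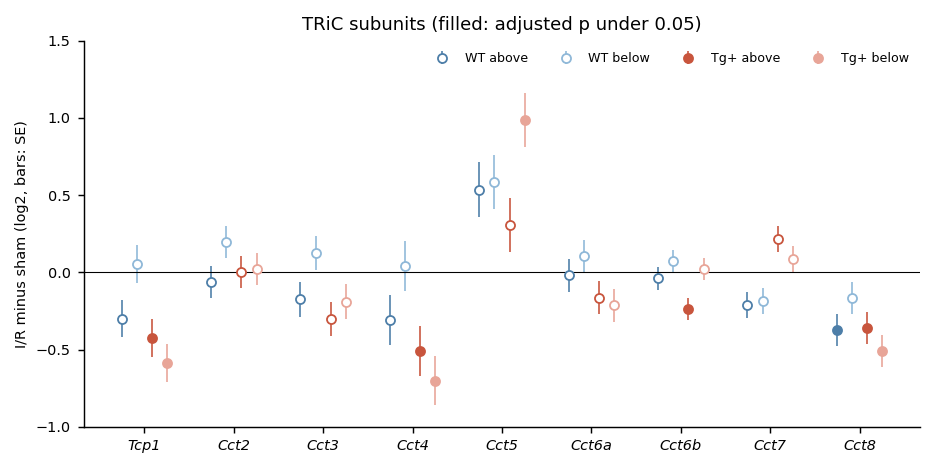
Difference between I/R and sham (y axis, log2, points with SE) for 9 TRiC subunits in each genotype and piece; filled points passed the test. Cct5 lies above 0 in all 4 comparisons, a direction that turned under median centring, whereas Cct8 lies below 0 in all 4.

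Of the 4 class A J-domain genes, relatives of bacterial DnaJ that deliver clients to Hsp70, 3 fell and 0 rose. Dnaja4 was 0.78 to 1.55 on sham arrays (median 1.30) and -0.12 to 0.93 on I/R arrays (median 0.40), with 10 of 12 I/R arrays below the lowest sham array. It fell by 0.86 ± 0.10 (1.82-fold, adjusted p = 1.15e-06), and was at -0.70 without the weak arrays. A dimmer probe, above background on 10 arrays, gave -0.15. Dnaja2 fell by 0.18 ± 0.07 (adjusted p = 0.037), but it was at -0.03 without the weak arrays and above 0 with Agilent's log ratio (0.13) and the Cy5 channel alone (0.06). Dnaja1, the main cytosolic partner of Hsc70, did not pass (-0.03 ± 0.07).

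Of 8 class B genes, 1 rose, 2 fell and 5 did not pass. The share that fell was near that of all genes (27.9%). Dnajb1 (Hsp40), the heat-inducible partner of Hspa1a, was -1.48 to -0.85 on sham arrays (median -1.10) and -1.17 to -0.20 on I/R arrays (median -0.64), with 7 of 12 I/R arrays above the highest sham array. It rose by 0.36 ± 0.11 (adjusted p = 0.011), a call lost without the weak arrays (0.13, adjusted p = 0.347) and turned under median centring (-0.74). Its second probe gave 0.25. Dnajb2, which carries ubiquitin-binding motifs, fell by 0.66 ± 0.16, from 1.42 to 1.76 on sham arrays; without the weak arrays it was at -0.28. Dnajb5 fell by 0.30 ± 0.05. In Tg+ below its probe was above background on 0 of 3 arrays, and its Cy5 signal there was 1.24-fold lower as measured. Dnajb4, Dnajb6, Dnajb9, Dnajb11 and Dnajb12 lay between -0.14 and 0.13.

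Class C gathers proteins that share only the J domain, and of its 24 genes 3 rose and 10 fell. Besides Dnajc15, those that rose were Dnajc18 (0.34 ± 0.05, adjusted p = 2.92e-05), an ER membrane protein, and Dnajc10 (0.22 ± 0.04, adjusted p = 0.00015), the ER reductase ERdj5. Dnajc18 was -0.18 to 0.07 on sham and 0.06 to 0.64 on I/R arrays, and Dnajc10 was -0.03 to 0.15 and 0.11 to 0.55, so for each 11 of 12 I/R arrays exceeded the sham range. Both held without the weak arrays (0.38 and 0.26) and with the slide as a block. Under median centring they were at -0.14 and -0.18, which is 0.26 and 0.22 above the shift of all genes. Other probes of Dnajc10 gave 0.03 and 0.06.

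Among the class C genes that fell outside mitochondria were Dnajc16 (-0.46 ± 0.12), Dnajc25 (-0.32 ± 0.11), Dnajc2 (-0.30 ± 0.09), Dnajc21 (-0.28 ± 0.08), Dnajc5 (-0.18 ± 0.07), Dnajc7 (-0.16 ± 0.07) and Dnajc27 (-0.13 ± 0.04). Dnajc2 and Dnajc21 act in protein synthesis and ribosome assembly, and Dnajc5 is the vesicle protein CSP-alpha. Dnajc16, Dnajc25 and Dnajc2 did not pass without the weak arrays. The probes of Dnajc16 and Dnajc27 were above background on only 7 and 6 of 12 I/R arrays. Second probes of Dnajc16 (-0.04) and Dnajc2 (0.04) did not pass. Dnajc3 (p58IPK), an ER chaperone and inhibitor of the kinase PERK, was not called on average by its brightest probe (0.14 ± 0.08), whereas 2 of its other probes gave 0.54 and 0.61 (adjusted p = 0.000339 and 9.36e-06) and the other gave -0.14. Over all 10 ER members 2 rose, 1 fell and 7 did not pass. Of 5 nuclear ones 2 fell, and of 3 vesicle ones 1 fell. Beside 27.7% of all genes higher and 27.9% lower, these small counts do not set a compartment apart.

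Of the 5 members that rose and had a promoter window, 0 held the 3-unit heat shock element and 3 the 2-unit one (Hspa1a, Cct5 and Dnajc10). Of 20 that fell, 3 held the 3-unit and 5 the 2-unit element. Of 25 not called, 1 and 5 did. Over all 27025 genes with a window, 179 held the 3-unit and 4587 the 2-unit element. Among the 3 that fell with the 3-unit element, Hspd1 and Hspe1 hold the same stretch. Only exact GAA and TTC units were counted, so imperfect elements were missed. Hsp90b1 and Dnajc3, the members with the ER stress response element, were not called.

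In wild-type pieces above the ligature, 11 members passed, against 13.2% of all genes: 2 rose and 9 fell, where 5.96% and 7.28% of all genes did so. Hspa1a and Dnajc10 (0.27 ± 0.08) rose, the latter turned by median centring (-0.205). The largest falls were in Dnaja4 (-0.81 ± 0.19), Dnaja3 (-0.76 ± 0.21), Hspd1 (-0.67 ± 0.14), Hspa9 (-0.64 ± 0.11), Hspa12a (at least 1.33-fold, not well above background after I/R; measured at -0.52), Dnajc5 (-0.44 ± 0.14), Dnajb5 (-0.42 ± 0.11) and Cct8 (-0.38 ± 0.10), with Dnajc11 the last. Dnaja4, Hspa12a, Hspa9 and Hspd1 passed whichever 1 array was left out. The count was 6 without sham replicate 2, 7 without sham replicate 3, 7 without I/R replicate 1, 6 without I/R replicate 2 and 17 without I/R replicate 3. With the slide as a block it was 2.

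In wild-type pieces below the ligature only 2 members passed, against 5.59% of all genes (2.14% higher, 3.45% lower): Hspa1a rose and Hspa12a fell by 0.45 ± 0.09 (adjusted p = 0.00544). Over all groups the Hspa12a probe was above background on only 2 of 12 I/R arrays, so the filter favoured this fall and its size is uncertain. Hspd1 (-0.33, adjusted p = 0.202) and Hspa9 (-0.34, adjusted p = 0.08) did not pass here. The count was 1 without sham replicate 1 or 2 or I/R replicate 1, 5 without I/R replicate 2, and 8 without all 5 weak arrays. With the slide as a block it was 0.

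In Tg+ pieces above the ligature, where no array was weak, 14 members passed, against 15.3% of all genes: 4 rose and 10 fell, where 6.94% of all genes rose and 8.36% fell. Hspa1a, Dnajc18 (0.57 ± 0.10), Dnajc3 (0.54 ± 0.17) and Dnajc10 (0.37 ± 0.08) rose, the last turned by median centring (-0.0439). The largest falls were in Dnaja4 (-0.99 ± 0.19), Hsph1 and Hspd1 (-0.84 ± 0.21 and -0.84 ± 0.14), Cct4 (-0.51 ± 0.16), Hspa9 (-0.51 ± 0.11), Tcp1 (-0.42 ± 0.12), Cct8 (-0.36 ± 0.10) and Dnajc11 (-0.32 ± 0.09). Without the weak arrays of other groups, which share the estimate of spread, 31 members passed, and 14 of them were the 14 called with all arrays. The count was 5 without sham replicate 1 and 6 without sham replicate 3, I/R replicate 2 or I/R replicate 3. It was 2 with Agilent's log ratio and 3 with the slide as a block.

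In Tg+ pieces below the ligature 19 members passed, against 32.5% of all genes: 2 rose and 17 fell, where 15.4% and 17.1% of all genes did so. Hspa1a and Cct5 (0.99 ± 0.18, adjusted p = 0.000735; -1.12 under median centring) rose. The largest falls were in Dnajc28 (-1.33 ± 0.35), Dnaja4 (-1.17 ± 0.19), Dnajb2 (-1.06 ± 0.31), Dnaja3 (-0.9978 ± 0.21), Dnaja2 (-0.75 ± 0.14), Cct4 (-0.70 ± 0.16), Hspd1 (-0.66 ± 0.14) and Dnajc30 (-0.64 ± 0.14). Of the 10 mitochondrial members 7 fell here, against 3 in Tg+ above, 4 in wild-type above and 0 in wild-type below. In the same order, 17.1%, 8.36%, 7.28% and 3.45% of all genes fell. The counts were not tested against each other. In this group 2 of 3 I/R arrays were weak. On leaving the weak ones out 10 members passed, on 1 I/R array with its spread taken from other groups. The count was 11 without I/R replicate 3 and 2 with the slide as a block.

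Between Tg+ and wild-type sham hearts 0 members passed, above (0.035% of all genes did, 0.0175% in each direction) or below (0.0262%, with 0.0175% higher and 0.00875% lower). At an unadjusted p under 0.05 it was also 0 in limma in each, against 1.99% of all genes above and 1.44% below. The fit shares its spread with the more variable I/R groups, so small differences between sham hearts could be missed. With array weights 8 passed above. The members with the smallest p were Dnajc24 (0.20 ± 0.10), Dnajb4 (0.34 ± 0.19) and Dnajc12 (0.24 ± 0.14) above, and Hspa12a (-0.16 ± 0.09), Dnajb5 (-0.19 ± 0.11) and Dnaja1 (0.24 ± 0.14) below, each with an adjusted p of 1. After I/R above the ligature 0 passed as well (0.656% of all genes, 0.254% higher and 0.402% lower), 15 at an unadjusted p under 0.05 in limma and 15 after adjustment with array weights. Cct7 (0.35 ± 0.08, adjusted p = 0.0593), Hspe1 (-0.57 ± 0.17, adjusted p = 0.126) and Hspa1l (0.36 ± 0.11, adjusted p = 0.152) came nearest. Without wild-type I/R replicate 3 the count was 7, and without Tg+ I/R replicate 1 it was 1.

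After I/R below the ligature 4 members were lower in Tg+ than in wild type and 0 higher, against 2.94% of all genes in either direction, 1.71% lower and 1.22% higher. Dnajb4, a muscle J-domain protein of the DnaJB1 type, was at 1.02, 1.56 and 1.63 on the wild-type arrays, and the Tg+ arrays had 0.88, 0.44 and 0.36. The groups did not overlap, and the difference was -0.85 ± 0.19 (adjusted p = 0.0326). Dnaja2 was at 1.00, 1.38 and 1.43 against 1.11, 0.45 and 0.44 (-0.60 ± 0.14, adjusted p = 0.0327), so 1 Tg+ array was above 1 wild-type array. Tcp1 was at -0.21, -0.24 and -0.22 against -0.50, -0.62 and -1.03 (-0.50 ± 0.12, adjusted p = 0.0377). Hspe1 differed by -0.63 ± 0.17 (adjusted p = 0.0483).

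Of the 3 Tg+ arrays here 2 were weak, and for Dnajb4 and Dnaja2 these 2 had the lowest values. Each of the 4 calls was lost in 4 of 6 fits that left out 1 array. The count was 28 without wild-type replicate 1, itself weak, 18 without Tg+ replicate 1, the only Tg+ array that was not weak, and 0 without any of the other 4 arrays. It was 0 with the slide as a block. Without the weak arrays 5 passed, of which 1 was among these 4, with 1 Tg+ array left and its spread taken from other groups.

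Between pieces of sham hearts 0 members passed in wild type or Tg+, as did 0% of all genes. Using array weights it was also 0 members. At an unadjusted p under 0.05 in limma it was 0 members, against 0.131% of all genes in wild type and 0.962% in Tg+. The spread in these tests is shared with the more variable I/R groups, so small differences between sham pieces could be missed. The smallest p-values were those of Hspa14 (-0.10), Dnajc25 (0.21) and Dnajc8 (-0.10) in wild type and of Dnajc24 (-0.17), Dnajb4 (-0.29) and Hspa1l (-0.17) in Tg+. In wild-type I/R hearts 0 members passed below against above (0.0175% of all genes), 10 at an unadjusted p under 0.05 and 30 with array weights. Nearest were Hspa9 (0.33 ± 0.11, adjusted p = 0.682), Hsp90ab1 (0.30 ± 0.11) and Cct3 (0.31 ± 0.11), all higher below. Without the weak wild-type I/R below replicate 1 the count was 7.

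In Tg+ I/R hearts 1 member passed, lower below the ligature, against 0.481% of all genes, of which 0.245% were lower and 0.236% higher. Dnaja2 was at 1.39, 1.38 and 1.23 above and 1.11, 0.45 and 0.44 below, without overlap (-0.67 ± 0.14, adjusted p = 0.0350). With the heart's replicate number as a block for Tg+ hearts 2 members passed, Dnaja2 (adjusted p = 0.0199) and Cct5 (0.78, adjusted p = 0.0337), the latter with its sign turned under median centring. The Dnaja2 call was lost in 5 of 6 fits that left out 1 array, and in the remaining one, without Tg+ I/R below replicate 1, 9 members passed. Cct5 was higher below by 0.78 ± 0.18 and missed the threshold (adjusted p = 0.0524). The 2 weak arrays of the Tg+ below group had the lowest Dnaja2 and the highest Cct5 values.

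Whether the response to I/R differed between genotypes was tested as an interaction, in which 0 members passed above or below (0.0175% of all genes in each). At an unadjusted p under 0.05 the limma counts were 8 above and 14 below, and with array weights 16 and 29 passed after adjustment. The smallest p-values above were those of Cct7 (0.43 ± 0.12, adjusted p = 0.317), Dnajb12 (0.35 ± 0.14) and Dnajb4 (-0.69 ± 0.28). Below they were those of Dnaja2 (-0.76 ± 0.20, adjusted p = 0.285), Tcp1 (-0.64 ± 0.17) and Dnajb4 (-0.97 ± 0.28). Without wild-type I/R below replicate 1 the count below was 12, and without Tg+ I/R below replicate 1 it was 6. For members called in one genotype alone, such as Hsph1, the response was thus not shown to differ between genotypes.

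Genes that work beside these chaperones, from lists made with earlier results of these data known, also moved in both directions on average. In that mean 55.6% of all genes were called, 27.7% higher and 27.9% lower, and these shares apply to each list below. The counts of Hsp70 and Hsp90 co-chaperones called lie near the share of all genes. Of 14 Hsp70 co-chaperones 2 rose and 6 fell, with Bag3 (-0.76 ± 0.12), Stub1 (-0.30 ± 0.05) and Bag6 (-0.23 ± 0.05) lower and the exchange factor Sil1 of the ER higher (0.23 ± 0.05). The ER Hsp70 Hspa5 was at -0.03 ± 0.17. Of 20 Hsp90 co-chaperones 5 rose and 7 fell. Fkbp4 (-0.69 ± 0.09), the ATPase activator Ahsa1 (-0.36 ± 0.05) and the myosin chaperone Unc45b (-0.56 ± 0.08) fell, and the p23 gene Ptges3 (0.36 ± 0.05) rose. Of 13 chaperonin partners 5 rose and 3 fell, with the prefoldin subunits Pfdn5 (1.13 ± 0.20) and Pfdn2 (-0.37 ± 0.09) on opposite sides and the tubulin cofactors Tbcc (0.42 ± 0.06) and Tbca (0.48 ± 0.09) higher.

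Of 9 heat shock factors and small heat shock proteins 3 rose, among them Hspb1 (0.81 ± 0.15) and Hspb2 (0.42 ± 0.10), and 3 fell, among them Hspb8 (-0.66 ± 0.16) and Hspb3 (-0.49 ± 0.07). Of 12 genes of mitochondrial protein quality control 7 fell and 3 rose. The mitochondrial Hsp90 gene Trap1 (-0.72 ± 0.10), the matrix protease gene Lonp1 (-0.60 ± 0.09) and Spg7 (-0.49 ± 0.09) fell, as Hspd1 and Hspa9 did, and the protease subunit gene Clpp rose (0.30 ± 0.05). Among J-domain genes outside the naming rule, Sec63 rose (0.14 ± 0.06) and Hscb fell (-0.26 ± 0.08). Every partner gene that rose in these lists by name (Sil1, Ptges3, Pfdn5, Tbcc, Tbca, Hspb1, Hspb2, Clpp and Sec63) lay below 0 under median centring, which moved the median of all genes by -0.40, and above 0 with Agilent's log ratio and the Cy5 channel alone. Those that fell by name stayed below 0 under all 3. Among partner genes not named above, the rises of Tbcb, Tbcd and Cryab turned with the Cy5 channel alone and that of Unc45a with Agilent's log ratio.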

How the data were processed

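The 24 deposited scanner files hold spot intensity values in 2 channels, made by the authors with Agilent Feature Extraction 9.5.3.1, per the file headers and the submitters' processing notes. The deposited log10 ratio of red over green in the same files and the authors' deposited log2 series table were used as alternatives; that table correlated with the log10 ratio at r of at least 0.986 on every array. Its column medians ran from -0.111 to 0.139, and its values matched heart over pup on the log2 scale with no further centring found. The heart is the Cy5 channel per the labels, although their labelling protocol names Cy3 only. No Cy5 spot of a kept probe was saturated.

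Mean spot intensity was corrected with normexp (offset 50) and loess within each array (limma 3.58.1, R 4.3.3), control spots having no weight. Of 41174 probes 15427 were kept and named through RefSeq symbols, by accession or name. The brightest kept probe in Cy5 stood for its gene, which gave 11429 genes. A model with 8 group means was fitted to all 24 arrays (lmFit, eBayes), and p-values were adjusted per comparison over all genes (Benjamini-Hochberg, threshold 0.05). The mean comparison averages the 4 I/R against sham differences, which share no arrays. Pieces above and below come from the same hearts, so these differences are not fully independent. The p-values cover the spread between 3 arrays a group, and the number of arrays limits precision. The labels give 2 pieces per heart and no link between them other than the number. Same-numbered pieces deviated together in Tg+ hearts (r of 0.130 to 0.541 in all 6 pairs), not in wild-type hearts. The procedure was tested on simulated data. The members and all lists were chosen with earlier results of these data known. Always named were Hspa1a, Hspa8, the Hsp90 genes, Hsph1, Hspd1, Hspe1, Tcp1, Dnaja1 and Dnajb1. Up to 8 of the largest called changes in each direction per I/R comparison, up to 4 elsewhere, and the 3 smallest p-values where none passed were named too, with the 2 largest of each role and up to 4 of each companion list. Other members were named after their values were seen. One gene of the companion lists is not reported here.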

Additional observations from a re-analysis of the deposited data

How the results depend on the processing

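All counts are of members called. Agilent's log ratio and the series table each gave 2 in Tg+ above and 8 for Tg+ against wild type in I/R below, and the Cy5 channel alone gave 6 and 12. Median centring gave 2 in wild-type above, 0 in wild-type below, 4 in Tg+ above, 58 in the mean and 0 for both Tg+ against wild type in I/R below and Tg+ I/R below against above. It turned Cct5 (-0.82 in the mean, -1.12 in Tg+ below), Dnajc10 (-0.18 in the mean, -0.205 in wild-type above, -0.0439 in Tg+ above), Dnajb1 (-0.74), Dnajc15 (-0.98), Dnajc18 (-0.14) and Hsp90aa1 (-0.64). Dnaja2 in the mean turned to 0.127 with Agilent's log ratio, 0.127 with the series table and 0.0644 with the Cy5 channel alone. Array weights gave 36, 13, 33 and 38 in the 4 I/R comparisons (wild-type above and below, Tg+ above and below), 8 for genotype in sham above, 15 and 38 for genotype in I/R above and below, 30 and 26 between wild-type and between Tg+ I/R pieces, and 16 and 29 for the interactions. The slide as a block gave 2, 0, 3 and 2 in the 4 I/R comparisons, 19 in the mean and 0 in the last 2 comparisons with calls, named above for median centring. With only the arrays of a comparison the counts were 5 in wild-type above, 0 in wild-type below, 25 in Tg+ above and 0 in those same 2. Without a filter on dim probes they were 0 in those 2. Between Tg+ I/R pieces the count was 2 without background subtraction and 3 with the heart as a random block. Without the weak arrays it was 8 in wild-type below, 31 in Tg+ above and 10 in Tg+ below. The replicate block gave 1 for genotype in I/R below and 0 between Tg+ I/R pieces. Across groups the numbers met no rule for pairing, with 24 of 84 same-numbered pairs correlated above 0.1 (range -0.768 to 0.576), nor did they between pieces of wild-type hearts (-0.738 to 0.536). Between pieces of Tg+ hearts all 6 pairs were above 0.1 (0.130 to 0.541). A replicate block by heart in Tg+, chosen after seeing the data, gave 2 between Tg+ I/R pieces and changed no other call. With 1 array left out, counts ran from 6 to 17 in wild-type above, 1 to 5 in wild-type below, 5 to 14 in Tg+ above, 11 to 27 in Tg+ below, 30 to 35 in the mean, 0 to 7 and 0 to 28 for genotype in I/R above and below, 0 to 7 between wild-type and 0 to 9 between Tg+ I/R pieces, and 0 to 12 for the interaction below. The cause of these shifts was not tested.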
